A study of Homo sapiens with 36 samples.

Results

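The response to the KDM5 inhibitor GS716054 was compared between 2 established mantle cell lymphoma lines, JEKO and UPN-1, after 72 h of treatment. The comparison used 12 of the 36 RNA sequencing libraries of the series, chosen by their labels: cells of each line given DMSO, the vehicle, or GS716054, making 4 groups of 3 biological replicates. For every gene, the change between GS716054 and DMSO in UPN-1 was subtracted from that in JEKO. A positive difference therefore means a higher response in JEKO and a negative one a lower response in JEKO. Rose and fell, as used below, compare GS716054 with DMSO at the same time and not one time with another. The cells carried no labelled genetic change, and each line is a single tumour-derived line, so a difference between the lines is a difference between 2 samples of the disease. No dose was given in the sources used here. A further line, MINO, and the 24 h libraries of JEKO and UPN-1 were set beside the comparison and did not enter its test.

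Lysine demethylases of the KDM5 family remove methyl groups from histone tails at active promoters, and inhibitors of the family raise that methylation. Mantle cell lymphoma is a B-cell malignancy driven by a translocation that places cyclin D1 (CCND1) under immunoglobulin control, and most cases express the transcription factor SOX11. Growth of such cells depends on cyclin-dependent kinases, which release E2F factors to switch on the genes of DNA replication, and which CDKN1A restrains.

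The 12 libraries held 10297650 to 13339593 reads in genes, and 20390 to 24533 genes had at least 1 read. All 15 B-cell markers examined stood at or above 1 CPM, the read count scaled to library size, in each of the 4 groups, and their summed level ranged from 4664 to 6585 CPM. Markers of other cell types were low: 6 of 12 markers of T and NK cells passed the filter on low counts (43.4 to 139.9 CPM summed, most of it TRAC), as did 2 of 10 of myeloid cells (1.0 to 4.0 CPM) and 4 of 11 of epithelial and stromal cells (9.4 to 36.3 CPM). The first principal component of log2 CPM held 77.1% of the variance and separated the lines, and the second held 5.2% and spread the JEKO replicates, with the pair of replicate 1 at one end and that of replicate 2 at the other. Mitochondrially encoded genes took 4.28% to 4.43% of gene reads in JEKO DMSO and 3.96% to 5.48% in treated JEKO, against 1.91% to 2.66% and 2.15% to 3.77% in UPN-1. Their part in the results was not tested. In bulk RNA, fewer cells of a kind and less RNA per cell cannot be told apart.

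The response differed between the lines for 54 of 17244 genes tested (edgeR quasi-likelihood test with the replicate number of each line as a block, Benjamini-Hochberg adjusted p under 0.05). This was 0.313% of the genes tested. In 43 genes the response was lower in JEKO (0.249%) and in 11 it was higher (0.0638%). Their absolute difference in log2 response ran from 0.76 to 3.21 with a median of 1.14, and 43 of the 54 were protein-coding. The 54 genes were grouped into patterns by the line in which each was called. Below, alone in a line means called in that line only, and a missing call does not show a missing response. CKB, for example, had a log2 change of 0.50 in JEKO and VAV2 of 0.47 in UPN-1, both without a call there. Of the 43 with a lower response in JEKO, 19 rose in UPN-1 and were not called in JEKO, 14 fell in JEKO and were not called in UPN-1, 5 fell in JEKO and rose in UPN-1, 4 were called in the same direction in both lines, and 1, ARFGAP3, was called in neither. Of the 11 with a higher response in JEKO, 7 rose in JEKO without a call in UPN-1, 2 fell in UPN-1 without a call in JEKO, 1 went in opposite directions and 1 rose in both. The call rested on the pairing and on single pairs: without the block 0 genes were called by edgeR (371 had an unadjusted p under 0.05), and with both libraries of UPN-1 replicate 1 or 3 left out 3 or 4 were called, against 87 without JEKO replicate 1. The sign of the difference stayed the same for the 54 in each of the 12 alternatives, apart from IFI27, which could not be tested without JEKO replicate 1. The 3 pair differences of one line did not overlap those of the other in 53 of the 54, where 5.79% of all genes tested had all JEKO pairs above and 9.32% all JEKO pairs below. The 54 were chosen by a test on these same pairs, so neither the kept signs nor this separation is separate support.

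**Figure D1:**
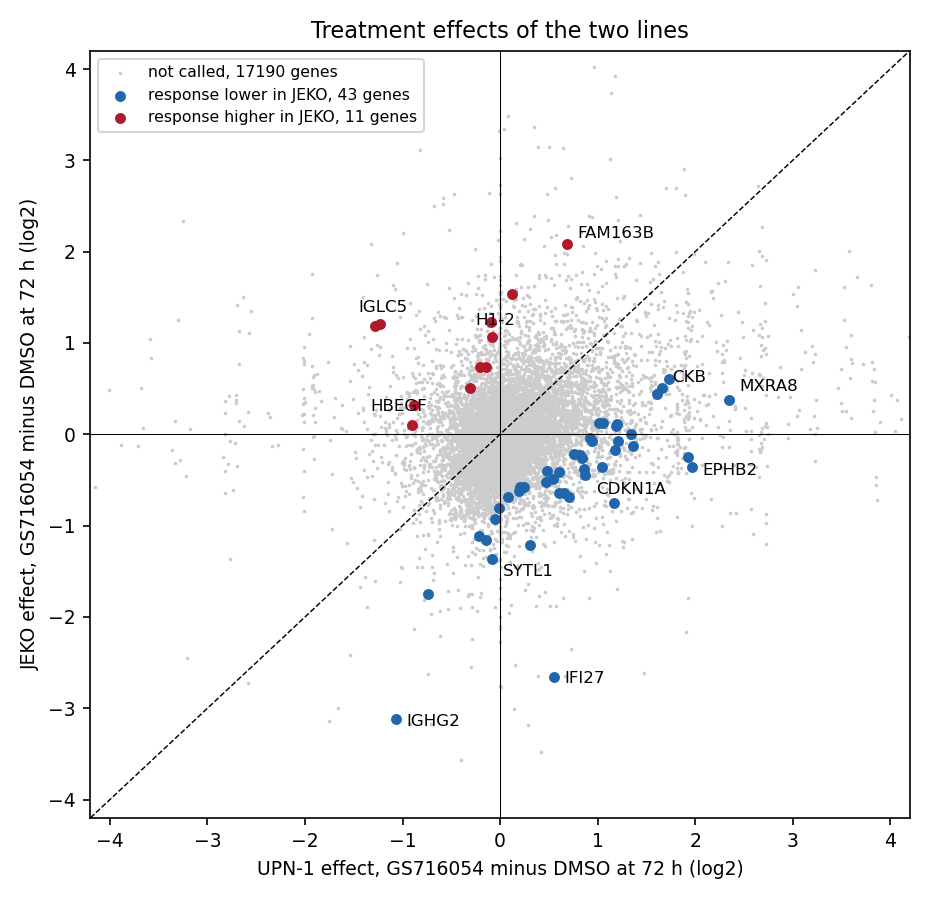
Log2 change between GS716054 and DMSO at 72 h in UPN-1 (horizontal axis) and JEKO (vertical axis), 1 point per gene tested, with the dashed line marking equal responses and 15 genes lying outside the axes. The 43 genes with a lower response in JEKO (blue) lie below the line and the 11 with a higher response in JEKO (red) above it.

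Within each line, as contrasts of the same joint fit, calls in JEKO went in both directions and calls in UPN-1 were mostly upward. In JEKO, 986 genes were called between GS716054 and DMSO (5.72% of those tested), 402 higher (2.33%) and 584 lower (3.39%). In UPN-1, 345 were called (2%), 282 higher and 63 lower (1.64% and 0.365%). The mean response of both lines was called for 1391 genes (8.07%), 694 higher and 697 lower. Genes called higher were thus 40.8% of the calls in JEKO and 81.7% in UPN-1. With the size factors of DESeq2 in place of TMM, JEKO had 442 higher and 424 lower calls (51% higher), while UPN-1 stayed at 80.7%. Over all 12 alternatives the share of higher calls ran from 40% to 58.2% in JEKO and from 66.1% to 90.7% in UPN-1. Without the block, 10 and 9 genes were called. The number of UPN-1 calls moved from 54 without UPN-1 replicate 1 to 734 without JEKO replicate 1. That JEKO pair enters the UPN-1 calls through the spread, the TMM scaling and the low-count filter, which the lines share. The part of each was not tested.

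CDKN1A, which encodes an inhibitor of cyclin-dependent kinases and is a target of p53, went in opposite directions in the 2 lines at 72 h. In the order of replicates 1, 2 and 3, its normalised read count was 133, 65.1 and 135 CPM in JEKO DMSO and 89.7, 52.3 and 99.0 CPM in treated JEKO. In UPN-1 it was 31.7, 17.2 and 12.3 CPM in DMSO and 49.9, 30.1 and 28.5 CPM after treatment. It was lower in each of the 3 JEKO pairs and higher in each of the 3 UPN-1 pairs, and every JEKO library stayed above every UPN-1 library. The log2 change was -0.44 (SE 0.110, edgeR adjusted p = 0.0223) in JEKO and 0.88 (SE 0.124, edgeR adjusted p = 0.000684) in UPN-1, so the lines differed by -1.32 (SE 0.166, edgeR adjusted p = 0.00157). CDKN1A (chr6:36676460-36687337 on GRCh38) kept this call in 11 of 12 alternatives, with a difference of -1.41 to -1.17, and lost it without the block. At 24 h CDKN1A was higher after treatment in both lines, and called in UPN-1 alone. Its log2 change was then 0.44 (SE 0.0980, edgeR adjusted p = 0.0921) in JEKO and 0.70 (SE 0.118, edgeR adjusted p = 0.0480) in UPN-1. The 24 h difference of -0.27 was not called. Its mean JEKO level was 30.8 CPM in DMSO at 24 h, scaled in a separate fit, 111 CPM in DMSO at 72 h and 80.3 CPM in treated cells at 72 h. In UPN-1 the same values were 10.1, 20.4 and 36.2 CPM. Of the 27 p53 targets tested, it alone was called in the comparison of the lines. In JEKO, 3 of the 27 rose and 3 fell (2.33% and 3.39% of all genes tested did so), and in UPN-1 2 rose and 0 fell (1.64% and 0.365% of all).

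The other genes of this opposite kind were MTSS2, its antisense partner ENSG00000279569, DERL3 and the non-coding LINC00996, beside IGLC5, which is described with the immunoglobulin genes. MTSS2 encodes a protein that bends membranes and binds actin. Its levels were 138, 125 and 55.5 CPM in JEKO DMSO, 86.3, 86.9 and 54.7 CPM in treated JEKO, 40.4, 31.9 and 49.2 CPM in UPN-1 DMSO and 59.6, 51.8 and 72.0 CPM in treated UPN-1. All 3 UPN-1 pairs rose and 2 of the 3 JEKO pairs fell clearly, while that of replicate 3 hardly moved. The difference was -1.01 (SE 0.168, edgeR adjusted p = 0.0116) for MTSS2 and -1.30 (SE 0.161, edgeR adjusted p = 0.00157) for ENSG00000279569, whose exons overlap those of MTSS2 on the other strand over 76.8% of their length. Whether counting used the strand was not given in the sources used here, so reads of this pair cannot be told apart. DERL3, a component of the machinery that removes misfolded proteins from the endoplasmic reticulum, went from 43.9, 42.7 and 31.4 to 20.3, 29.1 and 23.9 CPM in JEKO and from 34.1, 47.5 and 16.2 to 54.2, 61.7 and 35.7 CPM in UPN-1. The 2 lines overlapped in DMSO, and after treatment every UPN-1 library was above every JEKO library. Its difference was -1.39 (SE 0.213, edgeR adjusted p = 0.00672). Genes on the opposite strand, with SMARCB1 having the largest share, overlap 77% of its exon length.

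**Figure D2:**
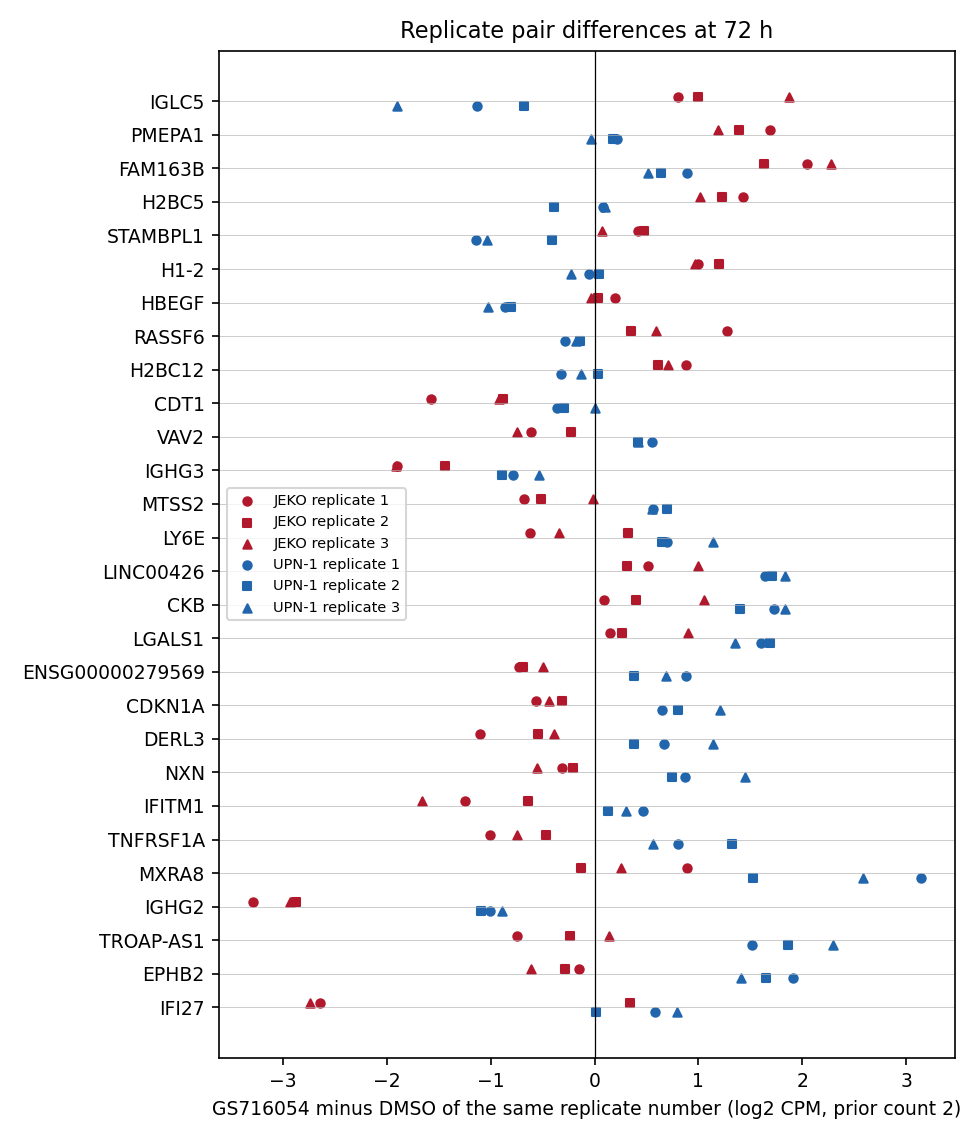
Difference in log2 CPM between the GS716054 and DMSO libraries of the same replicate number (horizontal axis) for the 28 named genes whose response differed between the lines, with JEKO in red, UPN-1 in blue and the marker giving the replicate. The 3 JEKO points lie on one side of the 3 UPN-1 points for every gene shown except IFI27, where JEKO replicate 2 lies among the UPN-1 points.

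The largest of the patterns was a rise in UPN-1 with no call in JEKO, shared by 19 genes. It took in genes of the cytoskeleton, cell surface and extracellular matrix, a mixture named here after their values were seen and not tested as a theme. CKB (chr14:103519667-103522833), the brain-type creatine kinase that buffers cellular energy, rose in UPN-1 from 60.1, 64.2 and 55.4 to 199, 169 and 198 CPM. In JEKO it went from 11.9, 11.5 and 7.05 to 12.7, 15.2 and 14.8 CPM. The treated and DMSO libraries did not overlap in either line, and the rise was steeper in all 3 UPN-1 pairs than in any JEKO pair. The log2 change was 1.66 (SE 0.132, edgeR adjusted p = 1.26e-06) in UPN-1 and 0.50 (SE 0.162, edgeR adjusted p = 0.0771) in JEKO, and the difference was -1.15 (SE 0.208, edgeR adjusted p = 0.0193).

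MXRA8 (chr1:1352689-1361777), a cell adhesion molecule that serves as a receptor for some alphaviruses, rose in UPN-1 from 3.32, 13.7 and 4.17 to 30.7, 39.7 and 25.9 CPM. In JEKO it stood at 15.4, 9.38 and 13.8 CPM in DMSO and 28.7, 8.53 and 16.4 CPM after treatment. The JEKO groups overlapped and replicate 2 was lower after treatment, while every treated UPN-1 library was above every UPN-1 DMSO library. The difference was -1.97 (SE 0.339, edgeR adjusted p = 0.0129). NXN (chr17:799310-979776), a thioredoxin-family regulator of Wnt signalling, roughly doubled in UPN-1, from 4.04 ± 0.830 to 8.30 ± 0.994 CPM (SD, n = 3 each). In JEKO it was at 34.5 ± 2.02 CPM in DMSO and 26.9 ± 1.78 CPM after treatment, lower in each of the 3 pairs with no call. Its difference was -1.40 (SE 0.235, edgeR adjusted p = 0.0120).

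EPHB2 (chr1:22710839-22921500), a receptor tyrosine kinase for ephrins, was almost silent in UPN-1 DMSO, with 0.170, 0.592 and 0.444 CPM, and reached 1.10, 2.22 and 1.46 CPM after treatment. A count of 3 is worth 0.225 to 0.291 CPM in these libraries, so the first of these values is below the limit of detection. JEKO held 38.1, 37.3 and 50.2 CPM in DMSO and 34.4, 30.5 and 32.7 CPM after treatment. The JEKO libraries all lay far above those of UPN-1, and the EPHB2 difference of -2.32 (SE 0.395, edgeR adjusted p = 0.0126) rested on the rise from this low level. TROAP-AS1 rose in UPN-1 from 6.97, 8.28 and 8.08 to 20.3, 30.7 and 40.3 CPM and showed no common direction in JEKO (6.22, 6.45 and 7.95 to 3.63, 5.46 and 8.76 CPM). Its difference of -2.18 (SE 0.280, edgeR adjusted p = 0.00157) was kept in 11 of 12 alternatives. Genes on the other strand overlap 49.6% of its exon length. The largest share is that of PRPH, the gene of the neuronal filament protein peripherin, and reads of overlapping genes cannot be told apart. PRPH itself went from 3.06, 5.13 and 6.48 to 19.9, 32.9 and 46.8 CPM in UPN-1 and from 0.788, 0.516 and 0.820 to 1.29, 1.23 and 2.00 CPM in JEKO. Both lines therefore had all treated libraries above all DMSO libraries for PRPH, with a log2 change of 2.75 (SE 0.176, edgeR adjusted p = 1.13e-07) in UPN-1 and 1.08 (SE 0.315, edgeR adjusted p = 0.0523) in JEKO, and their difference of -1.67 was not called (edgeR adjusted p = 0.0813).

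Further genes of this pattern were named after their values were seen. EEF1A2, a tissue-restricted translation elongation factor, went from 49.98, 53.7 and 48.4 to 118, 114 and 115 CPM in UPN-1, and JEKO held 479.9, 479.9 and 461 CPM in DMSO and 454, 516 and 548 CPM after treatment. The UPN-1 libraries separated completely and the JEKO libraries overlapped, and the difference was -1.10 (SE 0.141, edgeR adjusted p = 0.00157). LMNA, which encodes the A-type lamins of the nuclear envelope, rose in UPN-1 from 14.8 ± 3.999 to 24.6 ± 3.83 CPM, with 84.9 ± 9.50 and 73.1 ± 4.27 CPM in JEKO. CNN2, an actin-binding calponin, rose in UPN-1 from 31.3 ± 6.73 to 65.1 ± 15.3 CPM, with 172 ± 51.9 and 187 ± 49.9 CPM in JEKO. For both LMNA and CNN2 the UPN-1 libraries stayed below those of JEKO even after treatment.

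LGALS1 and LINC00426 rose in both lines but more in UPN-1. LGALS1, which encodes the secreted lectin galectin, went from 59.2, 103 and 66.6 to 65.6, 124 and 125 CPM in JEKO and from 5.53, 5.13 and 2.49 to 17.2, 16.9 and 6.60 CPM in UPN-1. All 6 pairs rose, and the JEKO rise was small in replicates 1 and 2. Its log2 change was 0.44 (SE 0.127, edgeR adjusted p = 0.0497) in JEKO and 1.61 (SE 0.184, edgeR adjusted p = 8.09e-05) in UPN-1, a difference of -1.17 (SE 0.225, edgeR adjusted p = 0.0291). The long non-coding LINC00426 differed by -1.13 (SE 0.172, edgeR adjusted p = 0.00672), with log2 changes of 0.60 and 1.73.

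**Figure D3:**
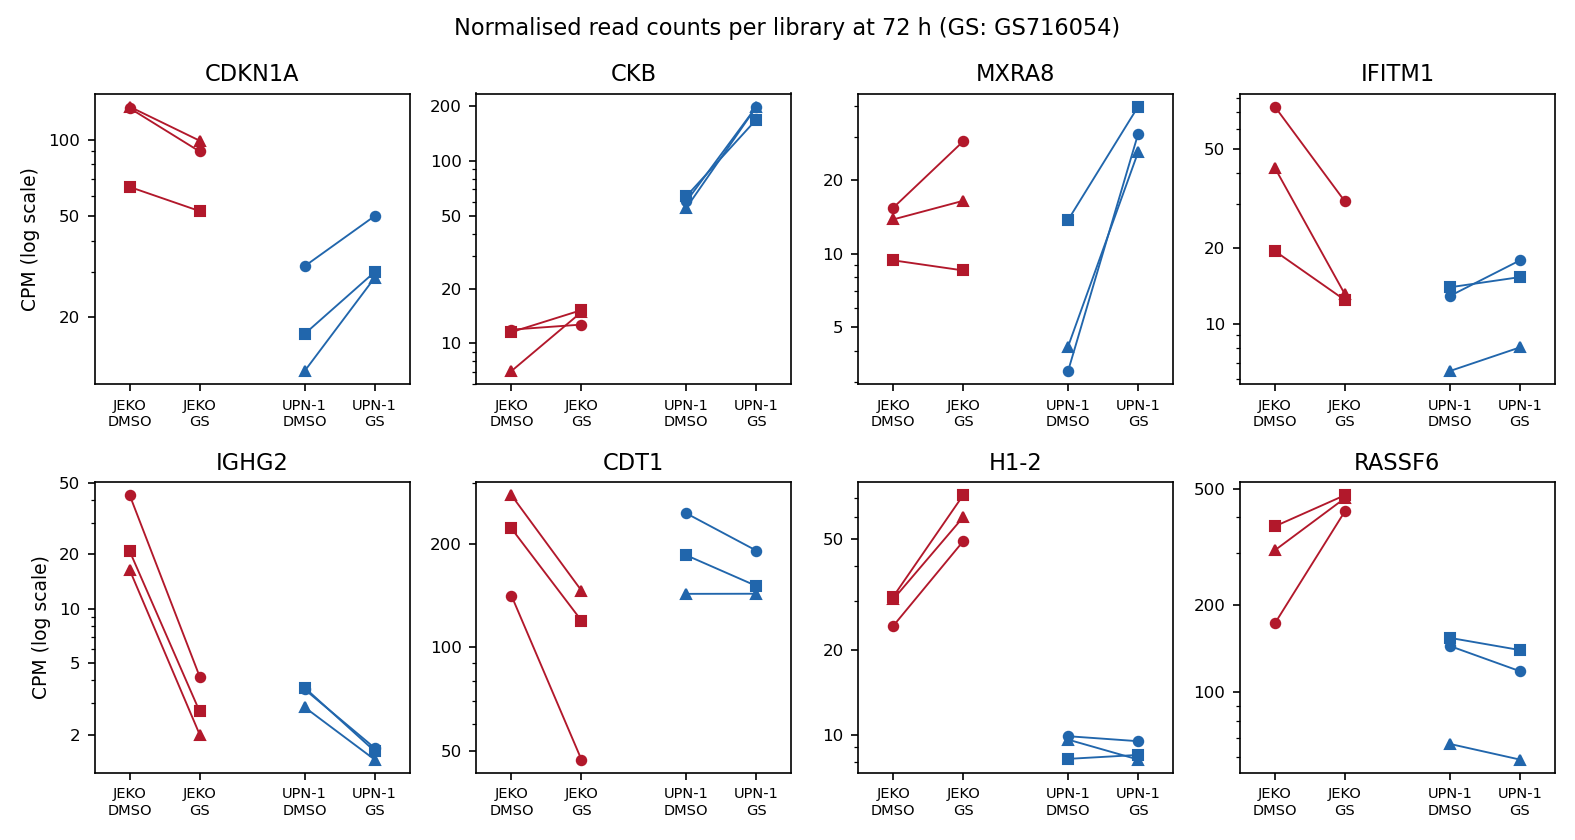
Normalised read count (CPM, log axis) of 8 named genes in each library at 72 h, with a line joining the DMSO and GS716054 libraries of the same replicate number (circle 1, square 2, triangle 3), JEKO in red and UPN-1 in blue. CDKN1A falls in all 3 JEKO pairs and rises in all 3 UPN-1 pairs, and H1-2 rises in JEKO alone.

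In JEKO, the genes that fell included much of the interferon response, the set of genes that interferons switch on to restrict viruses. Of 40 members tested, 29 fell and 0 rose in JEKO, while 1 rose and 0 fell in UPN-1. Over all genes tested, 3.39% fell in JEKO and 1.64% rose in UPN-1. The median difference of the list was -0.84 on the log2 scale, against -0.05 over all genes tested. Only 2 of the 40, IFI27 and LY6E, passed the test of the difference between the lines. The summed level of the 40 genes was 3847, 823 and 2133 CPM in JEKO DMSO and 2033, 772 and 779.5 CPM after treatment. It was 855, 965.0 and 796 CPM in UPN-1 DMSO and 831, 912 and 756 CPM after treatment. The fall was thus in JEKO replicates 1 and 3, where 38 of 40 genes were lower, and those libraries started well above UPN-1, whereas JEKO replicate 2 started at the level of UPN-1 and had 23 lower and 16 higher. The median pair difference was -0.94, -0.16 and -1.82 in JEKO and -0.04, -0.11 and -0.15 in UPN-1. The count of 29 was 11 without JEKO replicate 3, 19 without JEKO replicate 1, 13 by DESeq2 and 0 without the block.

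Single members showed the same spread. MX1, an antiviral GTPase, went from 509.9, 29.3 and 282 to 215, 20.4 and 21.8 CPM in JEKO and from 57.1, 54.6 and 45.2 to 33.6, 30.7 and 27.2 CPM in UPN-1. All 6 pairs were lower after treatment, and JEKO replicates 1 and 3 began far above the rest. The log2 change of MX1 was -1.81 (SE 0.348, edgeR adjusted p = 0.00413) in JEKO and -0.78 (SE 0.334, edgeR adjusted p = 0.329) in UPN-1, and the difference was not called (edgeR adjusted p = 0.589). ISG15, a ubiquitin-like modifier, went from 231, 24.1 and 84.7 to 81.6, 27.3 and 23.6 CPM in JEKO, lower in replicates 1 and 3 and slightly higher in replicate 2. IFI27 had the largest difference of all named genes, -3.21 (SE 0.640, edgeR adjusted p = 0.0375), on a narrow basis: 123, 0.0860 and 5.90 CPM in JEKO DMSO, 19.5, 0.154 and 0.742 CPM in treated JEKO, and at most 0.598 CPM in any UPN-1 library. The fall was in JEKO replicates 1 and 3, and the call was the only one of the 54 whose pair differences overlapped between the lines and was not made by DESeq2. LY6E, a membrane protein induced by interferon, rose in UPN-1 from 23.5, 23.9 and 13.3 to 38.2, 37.4 and 29.6 CPM and went from 77.9, 28.3 and 42.7 to 50.4, 35.5 and 33.6 CPM in JEKO. It differed by -1.06 (SE 0.220, edgeR adjusted p = 0.0475), and 3 of 12 alternatives kept the call.

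IFITM1 (chr11:310041-315272), another interferon-induced gene, whose product sits in membranes and blocks virus entry, was lower after treatment than in DMSO in JEKO. Its mean JEKO level was 10.8 CPM in DMSO at 24 h, scaled in a separate fit, 45.1 CPM in DMSO at 72 h and 18.8 CPM in treated cells at 72 h. Its levels were 73.7, 19.5 and 42.0 CPM in JEKO DMSO and 30.9, 12.5 and 13.1 CPM after treatment, against 12.9, 13.999 and 6.48 and then 17.9, 15.4 and 8.05 CPM in UPN-1. It was lower in all 3 JEKO pairs, from widely different starting levels, and higher in all 3 UPN-1 pairs, where the rise was not called. The log2 change was -1.21 (SE 0.161, edgeR adjusted p = 0.000247) in JEKO and 0.31 (SE 0.178, edgeR adjusted p = 0.543) in UPN-1, a difference of -1.52 (SE 0.240, edgeR adjusted p = 0.00705). TNFRSF1A (chr12:6328757-6342114), the main receptor for tumour necrosis factor, fell in JEKO from 31.5, 20.4 and 25.2 to 15.6, 14.7 and 14.9 CPM. UPN-1 held at most 2.48 CPM in any library. All 3 JEKO pairs were lower. UPN-1 stood at 0.850, 0.887 and 0.178 CPM in DMSO and 1.61, 2.48 and 0.343 CPM after treatment, which rests on 21 and 52 reads in all, and the value of 0.178 CPM is below the level of 3 counts, so no direction is read from UPN-1. The fitted TNFRSF1A difference of -1.92 (SE 0.391, edgeR adjusted p = 0.0415) depends in size on those few reads, and 4 of 12 alternatives kept its call. VAV2 (chr9:133761894-133992604), a signalling protein that acts downstream of the B-cell receptor, went from 149.8, 106 and 118 to 98.1, 91.2 and 70.2 CPM in JEKO and from 12.5, 15.4 and 15.005 to 18.4, 20.7 and 20.0 CPM in UPN-1. All JEKO pairs were lower and all UPN-1 pairs higher, and the difference was -0.99 (SE 0.170, edgeR adjusted p = 0.0129). In JEKO, TNFRSF1A had a mean of 13.9 CPM in DMSO at 24 h, 25.7 CPM in DMSO at 72 h and 15.1 CPM in treated cells at 72 h. VAV2 likewise had 67.6, 125 and 86.5 CPM. Not every gene kept this order, and CDT1, described below, had 197, 213 and 104 CPM. Of the 22 genes of B-cell receptor signalling tested, VAV2 alone was called between the lines, while 4 rose and 4 fell in JEKO and 2 rose and 0 fell in UPN-1, against 2.33% and 3.39% of all genes tested in JEKO and 1.64% and 0.365% in UPN-1.

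Part of the DNA replication genes was called lower in JEKO and none in UPN-1, though most were lower in all 3 pairs of each line. Of 42 tested, 19 were called lower and 0 higher in JEKO, against 0 and 0 in UPN-1, and 1 was called between the lines. Over all genes tested, 3.39% fell in JEKO, 0.365% fell in UPN-1 and 0.313% were called between the lines. The median difference was -0.25, with median pair differences of -0.68, -0.36 and -0.25 in JEKO and -0.17, -0.16 and -0.17 in UPN-1. Every JEKO pair was therefore below every UPN-1 pair, and the median was below 0 in all 6. Counted without a test, 37 of the 42 were lower in all 3 JEKO pairs and 27 in all 3 UPN-1 pairs. The counts over all 17244 genes tested were 3586 and 3093. CDT1 (chr16:88803789-88809258), which loads the replicative helicase onto origins, was the called member: 141, 221 and 276 CPM in JEKO DMSO and 47.3, 119.7 and 146 CPM after treatment, against 245, 185 and 143 and then 191, 151 and 143 CPM in UPN-1. Its fall was largest in JEKO replicate 1 and its level hardly moved in UPN-1 replicate 3. The log2 change was -1.12 (SE 0.125, edgeR adjusted p = 5.25e-05) in JEKO and -0.22 (SE 0.123, edgeR adjusted p = 0.523) in UPN-1, a difference of -0.90 (SE 0.175, edgeR adjusted p = 0.0318). E2F1, the transcription factor that drives these genes, went from 119.9, 138 and 165 to 57.3, 76.8 and 118 CPM in JEKO and from 113, 88.1 and 98.6 to 104, 67.6 and 92.7 CPM in UPN-1. It was lower in all 6 pairs, and its difference of -0.60 was not called (edgeR adjusted p = 0.169). Of 40 mitosis genes, 5 fell and 0 rose in JEKO, 1 fell and 0 rose in UPN-1, and none was called between the lines. The shares over all genes are those given for the replication genes. Counted without a test, 17 of the mitosis genes were lower in all 3 JEKO pairs and 33 in all 3 UPN-1 pairs. Of all 17244 genes tested, 3586 and 3093 were so. The count of 19 replication genes was 9 without JEKO replicate 1, 12 without JEKO replicate 2, 7 without UPN-1 replicate 1 or with MINO in the fit, and 0 without the block.

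Histone genes moved the other way. Replication-dependent histone genes supply the core and linker histones of newly made chromatin, and their messages normally lack a poly(A) tail. Of 37 tested, 12 rose and 0 fell in JEKO, where 2.33% of all genes rose, and 0 rose and 0 fell in UPN-1. Their median difference was 0.90, and 3 of them (H1-2, H2BC5 and H2BC12) were called. Their summed level was 228, 278 and 236 CPM in JEKO DMSO and 466, 459 and 432 CPM after treatment, against 102, 91.4 and 93.7 and then 96.5, 106 and 75.5 CPM in UPN-1. The sum rose in each JEKO pair, with 29 to 33 of the 37 genes higher, and had no common direction in UPN-1. Promoters of the 3 called genes are shown because all 3 moved together, called in JEKO and not in UPN-1. The windows run from 250 bases before to 50 after the RefSeq start on GRCh38.p14, written 5′ to 3′ on the gene's own strand, and capitals mark the letters CCAAT or TATAAA on either strand (ATTGG or TTTATA when read from the other strand). The first is H1-2 at chr6:26056421-26056720 on the minus strand, the second H2BC5 at chr6:26157871-26158170 on the plus strand and the last H2BC12 at chr6:27146809-27147108 on the minus strand.
H1-2: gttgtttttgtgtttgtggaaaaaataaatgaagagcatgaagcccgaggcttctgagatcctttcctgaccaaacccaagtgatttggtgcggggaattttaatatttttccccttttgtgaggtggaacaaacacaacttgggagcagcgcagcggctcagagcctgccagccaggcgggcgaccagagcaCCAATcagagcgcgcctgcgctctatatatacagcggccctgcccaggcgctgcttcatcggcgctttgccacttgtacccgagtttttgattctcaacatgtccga
H2BC5: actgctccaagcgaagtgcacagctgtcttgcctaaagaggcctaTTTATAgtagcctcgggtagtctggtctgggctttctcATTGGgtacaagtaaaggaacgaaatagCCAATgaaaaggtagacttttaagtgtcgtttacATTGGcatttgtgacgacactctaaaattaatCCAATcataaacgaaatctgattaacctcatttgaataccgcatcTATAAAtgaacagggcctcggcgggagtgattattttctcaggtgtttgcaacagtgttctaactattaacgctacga
H2BC12: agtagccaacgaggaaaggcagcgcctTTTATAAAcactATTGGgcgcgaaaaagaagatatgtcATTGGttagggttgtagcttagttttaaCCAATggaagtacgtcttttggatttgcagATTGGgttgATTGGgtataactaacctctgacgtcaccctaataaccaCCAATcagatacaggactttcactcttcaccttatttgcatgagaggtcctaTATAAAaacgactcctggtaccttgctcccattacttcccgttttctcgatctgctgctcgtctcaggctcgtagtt
Each window holds CCAAT, and those of H2BC5 and H2BC12 also hold TATAAA. Of 33 tested histone genes with a window, 28 (84.8%) held CCAAT, 21 (63.6%) TATAAA and 19 (57.6%) both, against 35.7%, 12% and 4.84% of all 27305 windows. These matches describe letters and not sites in use, and histone genes that were not called hold them too.

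The linker histone gene H1-2 went from 24.4, 31.1 and 30.4 to 49.0, 71.6 and 59.8 CPM in JEKO and from 9.86, 8.18 and 9.59 to 9.47, 8.45 and 8.14 CPM in UPN-1. It doubled in every JEKO pair and stayed within the range of the DMSO libraries or just below it in UPN-1. The log2 change was 1.06 (SE 0.119, edgeR adjusted p = 5.25e-05) in JEKO and -0.08 (SE 0.147, edgeR adjusted p = 0.903) in UPN-1, a difference of 1.15 (SE 0.188, edgeR adjusted p = 0.0110). H2BC5 went from 14.4, 24.8 and 15.3 to 39.2, 58.4 and 31.2 CPM in JEKO and from 5.02, 7.79 and 3.82 to 5.32, 5.89 and 4.11 CPM in UPN-1 (difference 1.32, SE 0.234, edgeR adjusted p = 0.0167). H2BC12 went from 28.3, 30.6 and 28.5 to 52.3, 46.8 and 46.7 CPM in JEKO and from 20.8, 15.3 and 15.4 to 16.6, 15.6 and 14.049 CPM in UPN-1 (difference 0.88, SE 0.180, edgeR adjusted p = 0.0415). For both, treated JEKO libraries were above all others. Core histone genes are near-identical copies whose reads can be shared out unevenly, and how far the preparation kept messages without a poly(A) tail was not given in the sources used here. Without the block 1 histone gene was called in JEKO, with no low-count filter 19, and the 3 calls of the difference were lost without UPN-1 replicate 1 or 3 or JEKO replicate 2.

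**Figure D4:**
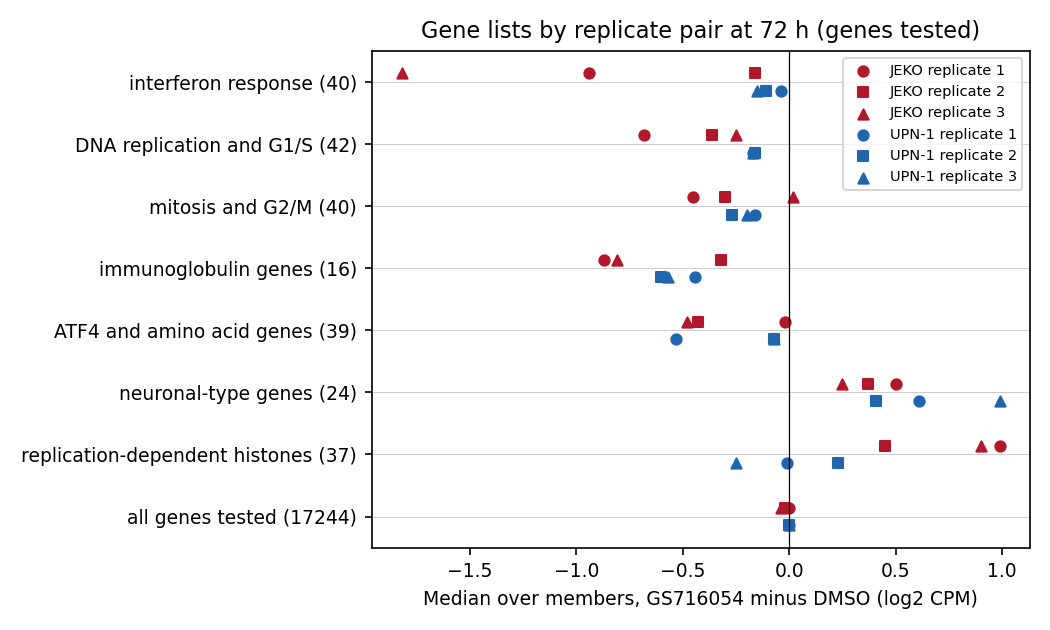
Median over the tested members of 7 gene lists, and over all 17244 genes tested, of the log2 CPM difference between GS716054 and DMSO (horizontal axis) in each replicate pair, with JEKO in red and UPN-1 in blue. The histone medians are 0.99, 0.45 and 0.90 in JEKO against -0.01, 0.23 and -0.25 in UPN-1, and JEKO replicate 2 stands apart in the interferon response at -0.16.

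Some immunoglobulin genes fell in both lines, and 2 of them fell further in JEKO. Of 16 tested, 9 fell in JEKO and 6 in UPN-1, and 0 rose in either, where 3.39% and 0.365% of all genes tested fell. The UPN-1 count was 1 without UPN-1 replicate 1, 3 without UPN-1 replicate 2 or 3, 10 without JEKO replicate 1, 11 with no low-count filter and 0 without the block, and the JEKO count was 5 without the block. IGHG2 (chr14:105639559-105644790), a heavy-chain constant gene, went from 42.6, 20.8 and 16.4 to 4.2, 2.69 and 2.00 CPM in JEKO and from 3.57, 3.65 and 2.84 to 1.69, 1.62 and 1.46 CPM in UPN-1. Treated and DMSO libraries did not overlap in either line, and after treatment JEKO came down near the UPN-1 DMSO level. The log2 change was -3.12 (SE 0.191, edgeR adjusted p = 5.69e-08) in JEKO and -1.07 (SE 0.248, edgeR adjusted p = 0.0283) in UPN-1, a difference of -2.05 (SE 0.324, edgeR adjusted p = 0.00705). IGHG3 went from 391, 347 and 259.7 to 105, 127 and 68.9 CPM in JEKO and from 115, 143 and 76.2 to 66.3, 77.2 and 52.7 CPM in UPN-1. It fell in all 6 pairs and differed by -1.01 (SE 0.159, edgeR adjusted p = 0.00705). IGHM, the constant gene of the IgM heavy chain, had a log2 change of -0.60 in JEKO (edgeR adjusted p = 0.00377) and -0.40 in UPN-1 (edgeR adjusted p = 0.0905), with a difference of -0.21 that was not called.

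IGLC5 (chr22:22915635-22915927), a lambda light-chain constant pseudogene, is not among the 16, and it rose in JEKO. It went from 10.6, 7.49 and 3.69 to 18.6, 15.1 and 13.96 CPM in JEKO and from 8.93, 3.94 and 3.995 to 3.97, 2.39 and 0.942 CPM in UPN-1. All JEKO pairs rose and all UPN-1 pairs fell, and the difference was 2.44 (SE 0.363, edgeR adjusted p = 0.00581). The heavy-chain genes and the lambda genes each have close copies, so the counts of single immunoglobulin genes are uncertain. The calls of IGHG2, IGHG3 and IGLC5 were each lost without UPN-1 replicate 1 and without UPN-1 replicate 3.

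Among the remaining genes with a higher response in JEKO, PMEPA1 and FAM163B rose there from a low level. PMEPA1, a feedback inhibitor of TGF-beta signalling, went from 1.26, 1.89 and 0.984 to 4.44, 5.23 and 2.45 CPM in JEKO and from 15.2, 15.97 and 20.7 to 17.7, 18.1 and 20.1 CPM in UPN-1 (difference 1.42, SE 0.289, edgeR adjusted p = 0.0415). FAM163B went from 1.73, 1.89 and 1.48 to 7.67, 6.23 and 7.80 CPM in JEKO and from 9.78, 9.96 and 12.1 to 18.3, 15.6 and 17.3 CPM in UPN-1 (difference 1.39, SE 0.289, edgeR adjusted p = 0.0461). For both genes every UPN-1 DMSO library was above every treated JEKO library. RASSF6 (chr4:73571550-73620631), a member of the Ras-association family linked to Hippo signalling, went from 173, 371 and 307 to 418, 475 and 464 CPM in JEKO and from 144, 154 and 66.6 to 118, 139.8 and 58.9 CPM in UPN-1. The JEKO rise was largest in replicate 1, and the difference was 0.94 (SE 0.187, edgeR adjusted p = 0.0375).

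HBEGF and STAMBPL1 differed through a fall in UPN-1. HBEGF (chr5:140332843-140346603), a ligand of the EGF receptor, went from 158, 122 and 103 to 86.9, 69.3 and 50.8 CPM in UPN-1, and JEKO held 5.91, 3.44 and 2.13 CPM in DMSO and 6.78, 3.54 and 2.08 CPM after treatment. It fell in all 3 UPN-1 pairs and hardly moved in JEKO, where its level was low (difference 0.99, SE 0.198, edgeR adjusted p = 0.0375). STAMBPL1, a deubiquitinating enzyme, went from 14.96, 10.9 and 14.6 to 6.68, 8.20 and 7.03 CPM in UPN-1 and from 33.5, 27.1 and 34.6 to 44.7, 37.8 and 36.3 CPM in JEKO (difference 1.20, SE 0.220, edgeR adjusted p = 0.0200). Its JEKO rise was not called (edgeR adjusted p = 0.214). With 1 replicate pair left out at a time, the call of FAM163B was kept in 0 of 6 fits, those of PMEPA1 and HBEGF in 1 each, and those of RASSF6 and STAMBPL1 in 3 each. Each of the 5 was lost without UPN-1 replicate 1 and without UPN-1 replicate 3, and all but STAMBPL1 also without UPN-1 replicate 2.

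No gene of the target family was called between the lines. KDM5A stood at 85.6 ± 20.6 and 89.7 ± 6.99 CPM in JEKO (DMSO and treated, SD, n = 3 each) and at 101 ± 15.3 and 102 ± 15.5 CPM in UPN-1. KDM5C stood at 178 ± 36.6 and 176 ± 7.88 CPM in JEKO and at 155 ± 15.8 and 152 ± 16.8 CPM in UPN-1. KDM5B was higher in all 6 pairs, from 16.6, 58.5 and 28.0 to 38.2, 65.9 and 39.7 CPM in JEKO and from 51.8, 118 and 36.0 to 69.9, 131 and 56.4 CPM in UPN-1. The rise was called in JEKO (log2 change 0.60, edgeR adjusted p = 0.0251) and not in UPN-1 (0.40, edgeR adjusted p = 0.210), and the difference of 0.19 (SE 0.210) was not called. KDM5D did not pass the filter on low counts.

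CCND1 (chr11:69641156-69654474), the lymphoma's driver, fell in both lines: from 2542, 3041 and 2438 to 1313, 1998 and 1653 CPM in JEKO and from 2969.6, 2212 and 2227 to 2070.3, 1566 and 1568 CPM in UPN-1. Every treated library was below every DMSO library in both lines, and the difference of -0.20 (SE 0.151) was not called. Neither were those of SOX11 (-0.24, SE 0.163), MYC (-0.16, SE 0.135), BCL2 (0.38, SE 0.288), MCL1 (0.19, SE 0.138) and BTK (0.28, SE 0.134). An uncalled difference does not show equal responses, and the standard errors give the size of difference that could have been missed.

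Both lines called 136 genes, which was 13.8% of the JEKO calls and 39.4% of the UPN-1 calls. Of these, 130 moved in the same direction (93 higher and 37 lower) and 6 in opposite directions. Among the JEKO calls, 84.6% had the same sign in UPN-1, and among the UPN-1 calls 85.5% had the same sign in JEKO, against 60.7% of all genes tested. As a description across genes, which are not independent, Pearson's r of the 2 responses was 0.25 over all 17244 genes and 0.45 over the 8545 whose mean log2 CPM reached 4. The lines have no library in common, but both responses came from the same joint fit, and the source of this likeness was not tested. Genes that both lines raised alike included CTTN, an actin regulator (log2 change 1.42 in JEKO and 1.37 in UPN-1), SYT11, a synaptotagmin (0.81 and 0.86), LRRC14B (0.90 and 1.03) and CTXN1 (0.89 and 0.83). GRK2, a kinase of G-protein-coupled receptors, fell alike (-0.71 and -0.61), as did the Ras regulator RASAL1 (-0.67 and -0.59), the class I antigen-presenting gene HLA-B (-0.56 and -0.49) and IFI16, a DNA sensor (-0.52 and -0.46). SYT11 went from 22.7, 20.7 and 18.5 to 46.8, 35.4 and 27.9 CPM in JEKO and from 13.9, 23.5 and 24.0 to 27.5, 44.9 and 38.1 CPM in UPN-1. The 2 lines overlapped at the start and after treatment, and all 6 pairs rose.

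A minority of the genes typical of neurons was called higher in either line. Of 24 tested, 5 were called higher in JEKO and 6 in UPN-1, 0 were called lower in either, and CKB alone was called between the lines. The median log2 change of the list was 0.33 in JEKO and 0.77 in UPN-1. Counted without a test, 9 of the 24 were higher in all 3 JEKO pairs and 14 in all 3 UPN-1 pairs. The counts over all 17244 genes tested were 2786 and 3158. Of all genes tested, 2.33% rose in JEKO and 1.64% in UPN-1. The JEKO count was 3 without UPN-1 replicate 1 or with MINO in the fit and 1 without the block, and the UPN-1 count was 4 without UPN-1 replicate 1 or 2 and 2 without the block. STMN3, a stathmin that regulates microtubules, rose in all 6 pairs (log2 change 0.53 in JEKO and 0.87 in UPN-1). CPLX1, a regulator of vesicle fusion, had values of 0.85 and 1.13. VGF, a secreted neuropeptide precursor, rose in JEKO from 2.60, 3.79 and 2.95 to 21.3, 13.8 and 13.3 CPM, and in UPN-1 it stood at 0.255, 0.493 and 0.622 CPM in DMSO and 0.592, 0.683 and 1.97 CPM after treatment. STMN3, CPLX1, VGF and PRPH were chosen as examples after their values were seen.

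Genes whose response differed were mostly those with a higher resting level in JEKO. In the DMSO libraries of 24 h, which do not enter the 72 h comparison, the mean level was higher in JEKO for 45 of the 54 (83.3%), against 52.6% of all genes tested. It was higher in JEKO for 17 of the 19 genes raised in UPN-1 with no call in JEKO, and at least 4 times higher for 12 of them (63.2%, against 11.2% of all genes tested). Of all 282 genes raised in UPN-1, 70.9% had a higher resting level in JEKO. It was also higher in JEKO for 11 of the 14 genes lowered in JEKO alone and for 6 of the 7 raised in JEKO alone. Of all 584 genes lowered in JEKO, 54.5% had a higher resting level in JEKO, near the share of all genes tested. CKB is an exception among the first kind, with 3.90 CPM in JEKO and 14.6 CPM in UPN-1, as is METRNL. At rest 50 of the 54 were at or above 1 CPM in both lines and 4 were so in JEKO only. The response difference and the resting difference had opposite signs in 42 of the 54 (77.8%), against 51.4% of all genes tested. As JEKO and UPN-1 differ widely at rest, level and line cannot be told apart here.

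**Figure D5:**
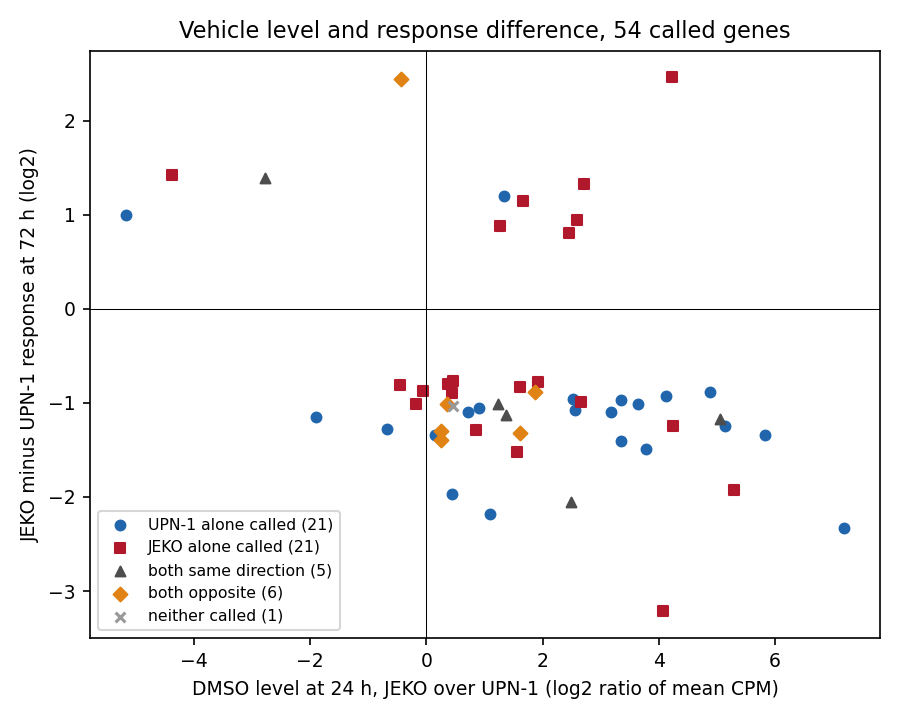
Ratio of the mean DMSO level at 24 h in JEKO to that in UPN-1 (log2, horizontal axis) and the difference between the lines in response at 72 h (log2, vertical axis) for the 54 called genes, with the marker giving the lines in which the gene was called. Most points lie in the lower right, where the resting level was higher in JEKO and the response lower.

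At 24 h the same comparison, made on other libraries, called 5 of 15577 genes (0.0321%), 1 with a higher response in JEKO (0.00642%) and 4 with a lower one (0.0257%). In JEKO 80 genes were called at 24 h (0.514%), 40 in each direction (0.257%), and in UPN-1 33 (0.212%), 26 higher (0.167%) and 7 lower (0.0449%). PRELID3B, a gene of the family of mitochondrial lipid carriers, was called at both times (-0.88 at 24 h and -0.81 at 72 h). It was lowered in JEKO, from 115, 111 and 111 to 72.0, 71.8 and 76.2 CPM at 72 h, and stood at 179.9, 130.5 and 211 and then 190.2, 197 and 198 CPM in UPN-1. The JEKO libraries separated completely and those of UPN-1 overlapped. NXT2 (-1.23), CEP41 (-0.92) and FADS2 (-0.95) also had a lower response in JEKO at 24 h, and ATF7IP (1.22), a partner of a histone methyltransferase, had a change of -1.42 in UPN-1 and of -0.19 in JEKO. Of the 54 genes called at 72 h, 43 (79.6%) had the same sign at 24 h, against 55.3% of all genes tested at both times. The sizes were less alike, with a Pearson's r of 0.21 between the differences at 72 h and 24 h over the 54. An unadjusted p under 0.05 with the same sign was found for 23 of the 54 at 24 h (42.6%), and an unadjusted p under 0.05 for 5.23% of all genes. At 24 h, 1 of 34 tested interferon genes was called lower in JEKO and none of the histone genes was called in either line. A test of the change in the difference from 24 h to 72 h called 0 of 17466 genes (edgeR, 775 with an unadjusted p under 0.05), so a later onset was not shown for any gene.

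In MINO, a further line of the same disease, 1506 of 14612 genes were called at 72 h (10.3%) in a fit of its own 6 libraries, 841 higher (5.76%) and 665 lower (4.55%). Of the 19 genes raised in UPN-1 alone, 17 were tested in MINO, and 8 rose and 0 fell there, among them CKB (log2 change 1.97), MXRA8 (1.44) and CNN2 (1.91). Of the 13 tested genes lowered in JEKO alone, 2 rose and 1 fell in MINO, and of the 6 tested that rose in JEKO alone, 4 rose and 0 fell. Among these, H2BC5 had a log2 change of 2.91, H2BC12 2.34 and H1-2 1.75, so these histone genes rose in MINO as they did in JEKO. CDKN1A had a change of -0.14 in MINO that was not called (edgeR adjusted p = 0.636). Of the interferon response, 14 members rose in MINO and 0 fell. The ATF4 and amino acid genes, which cells switch on when amino acids run short, fell in MINO for 28 of the 39 tested between the lines, in JEKO for 14 and in UPN-1 for 1, and none was called between JEKO and UPN-1. Of all genes tested, 4.55% fell in MINO, 3.39% in JEKO and 0.365% in UPN-1. The JEKO count of 14 was 9 without JEKO replicate 3 and 0 without the block. Counted without a test, 20 of the 39 were lower in all 3 JEKO pairs and 18 in all 3 UPN-1 pairs. Of all 17244 genes tested, 3586 and 3093 were so. The median pair difference of the list was -0.02, -0.43 and -0.48 in JEKO and -0.53, -0.07 and -0.07 in UPN-1. These MINO values stand beside the others as a description, and no difference between MINO and another line was tested here.

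Most other lists separated the lines in few genes or none. Over all genes tested, 2.33% rose and 3.39% fell in JEKO, and 1.64% rose and 0.365% fell in UPN-1. Among antigen-presenting genes, 7 of 26 were called lower in JEKO and 1 in UPN-1, but the median log2 change was -0.13 in JEKO and -0.19 in UPN-1. Counted without a test, 11 of these 26 were lower in all 3 JEKO pairs and 16 in all 3 UPN-1 pairs. The counts over all 17244 genes tested were 3586 and 3093. Of 25 genes of plasma cell differentiation, 2 rose and 7 fell in JEKO and 1 rose and 2 fell in UPN-1. The 15 B-cell markers had 1 higher and 4 lower in JEKO and 3 higher and 0 lower in UPN-1. In the NF-kappaB list, 4 of 23 fell in JEKO and 0 in UPN-1. No member of these 4 lists was called between the lines. The same held for the lists of cholesterol synthesis, glycolysis, ribosome biogenesis, apoptosis regulators, histone methylases and demethylases, and respiratory chain subunits. Of the 6 tested markers of T and NK cells, CD3D and CD3G rose in JEKO (mean 0.191 to 2.10 and 1.05 to 4.84 CPM), while the summed level of the T and NK list was 66.5 to 103.4 CPM in treated JEKO and 58.6 to 139.9 CPM in JEKO DMSO. Their part in any result was not tested.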

How the data were processed

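RNA from 36 cultures was sequenced, and 12 libraries, JEKO and UPN-1 at 72 h, form the comparison. The authors deposited whole-number read counts per Ensembl gene, 1 file per library, and HISAT2 2.2.1, HTSeq 0.13.5 and GRCh38 are named per the submitters' processing notes. Rows that name no gene, of which reads in no feature made up 43.75% to 45.93% of a library's reads, were left out, and 40.7% to 44.55% lay in genes. GENCODE release 44 named 57532 of 58302 genes.

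Genes were filtered with filterByExpr (minimum count 10, minimum total 15), scaled by TMM and tested with edgeR 4.0.16 in R 4.3.3 by quasi-likelihood, with line by replicate number as a block, which leaves 4 residual degrees of freedom. Calls used p-values adjusted by Benjamini-Hochberg across the whole table, with a threshold of 0.05, and standard errors were derived from the F statistic. CPM values are depth-scaled with TMM factors and carry an SD over n = 3 where given. Same-numbered libraries of a line deviated together (correlation of deviations 0.58, 0.53 and 0.29 in JEKO and 0.38, 0.47 and 0.50 in UPN-1, against -0.50 to 0.06 for different numbers), so the numbers pair them. The labels call them biological replicates of a line but do not say how the cultures were split. With the block, p-values measure how far the treatment differences vary between pairs, and not the spread between cultures.

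Named were 11 preset genes, up to 8 called genes per direction by size of difference, called genes that both lines moved, up to 4 called genes per list, and up to 4 per direction that both lines shared. Other genes were named after their values were seen. The members, the 31 lists and these rules were chosen with earlier results of these data known. Alternatives were no block, DESeq2 1.42.0 (size factors and test), no filter, a minimum count of 50, all 18 libraries of 72 h, and each replicate pair left out. The scripts were tested on simulated data.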

Additional observations from a re-analysis of the deposited data

Results flagged for a closer look

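For 54 genes the response to GS716054 differed between JEKO and UPN-1 by the test of the difference itself. The differences below are log2 responses of JEKO minus those of UPN-1, for the 28 named genes among them, with adjusted p from edgeR under 0.05. Among genes that moved in opposite directions they were -1.39 for DERL3, -1.32 for CDKN1A, -1.30 for ENSG00000279569, -1.01 for MTSS2 and 2.44 for IGLC5. Among genes that rose in UPN-1 with no call in JEKO they were -2.32 for EPHB2, -2.18 for TROAP-AS1, -1.97 for MXRA8, -1.40 for NXN, -1.15 for CKB and -1.06 for LY6E. Genes that fell in JEKO with no call in UPN-1 had -3.21 for IFI27, -1.92 for TNFRSF1A, -1.52 for IFITM1, -0.99 for VAV2 and -0.90 for CDT1. Genes called in the same direction in both lines had -2.05 for IGHG2, -1.17 for LGALS1, -1.13 for LINC00426, -1.01 for IGHG3 and 1.39 for FAM163B. Genes that rose in JEKO alone had 1.42 for PMEPA1, 1.32 for H2BC5, 1.15 for H1-2, 0.94 for RASSF6 and 0.88 for H2BC12. Those that fell in UPN-1 alone had 1.20 for STAMBPL1 and 0.99 for HBEGF.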

How the results depend on the processing

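All 54 differences kept their sign under each alternative in which they were tested, but the number called did not hold. Without the replicate block edgeR called 0 genes between the lines (371 with an unadjusted p under 0.05), so 0 higher and 0 lower, and 10 in JEKO, 9 in UPN-1 and 68 in their mean. With no low-count filter 188 were called between the lines (52 higher and 136 lower) and 656 in UPN-1. With all 18 libraries of 72 h, 8 were called between the lines (1 higher and 7 lower), 547 in JEKO, 212 in UPN-1 and 853 in the mean. The DESeq2 test called 20 higher. With 1 replicate pair left out at a time, calls between the lines ran from 3 (without UPN-1 replicate 1) to 87 (without JEKO replicate 1), 0 to 21 higher and 3 to 66 lower, and calls ran from 561 to 880 in JEKO, 54 to 734 in UPN-1 and 501 to 1476 in the mean. Leaving out a pair leaves fewer samples; otherwise the cause was not tested. Of the single genes and list counts under alternatives, 639 kept their side of the threshold or stayed near their count, 298 lost it, 46 counts moved and 0 reversed. At about 10297650 to 13339593 reads, genes under 0.291 CPM lie below a count of 3 and their folds are not measurable.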
